A study of Homo sapiens with 10 samples.

Results

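MCF10A cells on the stiffest gel of the series (60 kPa, 5 mM glucose) were compared with MCF10A cells on the softest gel (400 Pa) in high glucose medium. The comparison takes the 2 libraries labelled 60 kPa and the 2 labelled 400 Pa high glucose, chosen by their labels from 10 libraries in 5 groups. The other groups were 400 Pa, 1 kPa and 6 kPa gels at 5 mM glucose. MCF10A is an immortalised, non-tumorigenic human mammary epithelial line, and 1 line stands here for the tissue. Cells were kept for 24 h on polyacrylamide gels coated with fibronectin, with 4 gel cultures pooled for each library. The growth protocol lists horse serum, epidermal growth factor, insulin, hydrocortisone and cholera toxin. It describes the 5 mM medium for the high glucose samples too. If their medium otherwise matched it, insulin and a glucocorticoid were present in both groups. The sample labels say high glucose, and the series' own design text gives the concentration, 25 mM. The groups differed in 2 factors at once, stiffness and glucose, whose effects cannot be told apart in this comparison.

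Cells sense glucose partly through the transcription factors MondoA and ChREBP, which bind glucose-responsive promoters with their partner MLX when glucose 6-phosphate is plentiful. TXNIP, an arrestin-fold protein that restrains glucose uptake and binds thioredoxin, is their best known target. Cells sense a stiff substrate through integrins, the actin cytoskeleton and factors such as YAP, and epithelial cells on stiff matrix are known to spread, to loosen their junctions and to divide more. The G2 and M phase genes form a programme of their own, driven by B-MYB and FOXM1 through CCAAT boxes and the cell cycle genes homology region (CHR).

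The promoters of 3 genes on which the results turn are shown because TXNIP had a large fall and CDC20 and PLK1 were among the largest rises in cell division. Each sequence is the 250 bases before the gene's start, 5′ to 3′ on the gene's own strand, from RefSeq on GRCh38.p14. The stretches lie at chr1:145996580-145996829 (minus strand) for TXNIP, chr1:43358731-43358980 (plus strand) for CDC20 and chr16:23678639-23678888 (plus strand) for PLK1. Capitals mark the paired CACGAG of the carbohydrate response element in TXNIP, and CCAAT and TTTGAA (the CHR), on either strand, in CDC20 and PLK1. Left unmarked are CCAAT in TXNIP (-140 to -136 and -105 to -101), CACGAG in CDC20 (-152 to -147) and the E-box CACGTG in PLK1 (-198 to -193).
TXNIP: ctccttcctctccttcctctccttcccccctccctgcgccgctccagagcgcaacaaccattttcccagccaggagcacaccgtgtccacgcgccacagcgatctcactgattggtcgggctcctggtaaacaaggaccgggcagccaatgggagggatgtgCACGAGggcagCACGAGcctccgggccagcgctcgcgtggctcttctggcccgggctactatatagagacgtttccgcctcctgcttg
CDC20: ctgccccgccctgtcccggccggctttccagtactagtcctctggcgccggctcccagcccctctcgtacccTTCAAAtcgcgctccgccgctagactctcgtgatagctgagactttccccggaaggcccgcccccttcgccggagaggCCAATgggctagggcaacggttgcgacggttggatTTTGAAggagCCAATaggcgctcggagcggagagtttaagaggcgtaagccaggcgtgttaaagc
PLK1: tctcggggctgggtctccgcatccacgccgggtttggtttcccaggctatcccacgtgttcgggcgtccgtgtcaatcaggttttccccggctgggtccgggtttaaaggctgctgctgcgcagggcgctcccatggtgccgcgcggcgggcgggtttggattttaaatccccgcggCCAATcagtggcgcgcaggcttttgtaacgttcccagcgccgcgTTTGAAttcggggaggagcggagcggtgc
The paired form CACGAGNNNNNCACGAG, searched on both strands, was in 2 of 35116 windows of this length (0.00570%), and in TXNIP it ran from -88 to -72 before the start. A single CACGAG, which the paired form contains, was in 5.58% of windows, CCAAT was in 32.0% and TTTGAA in 13.3%. These matches describe letters and do not show that a factor was bound.

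The 60 kPa libraries held 5.86 and 7.14 M mapped reads (M is 1000000 reads) and the high glucose libraries 6.34 and 7.09 M, of which 65.5 to 71.7% lay in exons. The columns carry no replicate number, so in each group the shallower library is given first and the deeper second. Between 15257 and 15829 genes were above 0 in each of them. Pearson correlations of log2(FPKM + 1) were 0.981 within 60 kPa, 0.979 within high glucose and 0.970 to 0.974 between the groups. Libraries of the series differed along the GC content of transcripts, and these 4 lay on the same side: the Spearman rho of a library's deviation with GC was -0.60 and -0.57 at 60 kPa, and -0.66 and -0.65 in high glucose. The log2 differences of 60 kPa minus high glucose had a rho with GC of 0.12 over 12652 genes. Against 400 Pa at 5 mM glucose the rho was -0.72 for 60 kPa and -0.78 for high glucose. Values against 400 Pa are therefore given below only for leading genes, called junction genes, TGFBI, FKBP4, CALR and NSDHL, with the differences also after GC correction. Both comparisons share the same 400 Pa libraries.

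Levels are FPKM as deposited (reads scaled to exon length and to the mapped reads of the library), and differences are on the log2(FPKM + 1) scale, which understates the change of low genes. Each is given with its standard error, and a gene was called at a Benjamini-Hochberg adjusted p under 0.05 in limma over the 12820 genes whose mean over all libraries reached 0.5 FPKM. The fit held 10 libraries in 5 groups with 1 shared estimate of the spread. Of the 12820 genes, 224 were called (1.75%): 55 were higher on 60 kPa (0.429%) and 169 were lower (1.32%). Counts of called list members below are to be read beside these shares. At least 2-fold on this scale were 65 of the called falls and 7 of the called rises. The median difference over all genes tested was -0.00. Both 60 kPa libraries lay above both high glucose libraries for 3062 genes (23.9%) and below both for 3186 (24.9%). A 2-sided exact permutation test of 2 against 2 libraries cannot give a p under 0.333, so the calls rest on the spread shared across genes and groups.

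The share of calls that were rises, 24.6%, depended on the setting. It was 37.7% of 337 calls after centring by trimmed means, 53.7% of 892 after GC correction (479 rises, 3.79% of 12652 genes, and 413 falls, 3.26%), and 54.3% of 1762 in voom on recovered reads. Without the 6 kPa libraries, whose 2 members had opposite GC profiles, 301 rises and 409 falls were called. With the 4 libraries of the comparison alone 0 rises and 10 falls were called, against 985 rises and 1097 falls at an unadjusted p under 0.05. No called gene named here changed direction in any of these fits, nor with 1 of the 4 libraries left out. Summed levels of ribosomal protein RNAs, histone RNAs and RNAs listed as nuclear-retained were also lower in both 60 kPa than both high glucose libraries. The part of this in the falls below was not tested. For comparison, 60 kPa against 400 Pa at 5 mM had 2722 calls (21.2%) and high glucose against 400 Pa had 3136 (24.5%).

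**Figure D1:**
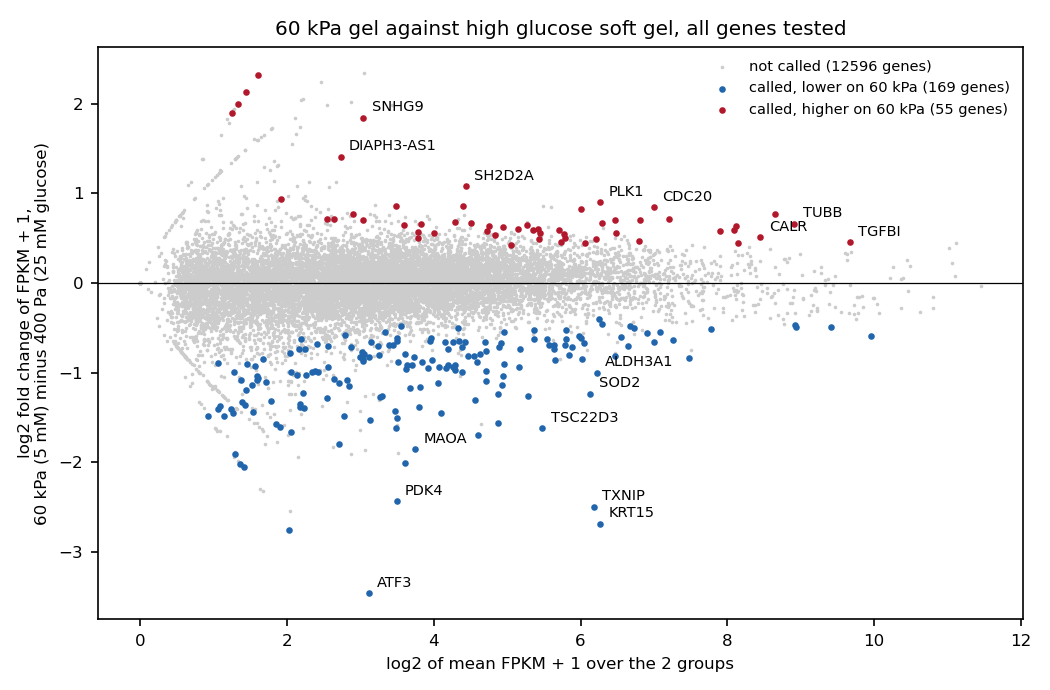
Log2 difference of FPKM + 1 (vertical axis, 60 kPa at 5 mM glucose minus 400 Pa at 25 mM glucose) against the log2 of the mean FPKM + 1 of the 4 libraries (horizontal axis) for 12820 genes. Blue points are the 169 called falls, led by ATF3, KRT15, TXNIP and PDK4, and red points the 55 called rises.

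The genes best known to report glucose and fuel choice were among the largest falls on the stiff gel. TXNIP was at 20.0 and 21.9 FPKM in the 60 kPa libraries, against 124 and 121 FPKM in the high glucose libraries. The groups lay far apart, and TXNIP fell by 2.50 ± 0.11 on the log2 scale, or 5.86-fold in mean FPKM (limma, adjusted p = 1.62e-05). PDK4, the kinase that switches off pyruvate dehydrogenase and so keeps pyruvate out of the TCA cycle, was at 2.41 and 2.62 FPKM on 60 kPa and at 18.9 and 17.2 FPKM in high glucose. It fell by 2.44 ± 0.12 (adjusted p = 2.17e-05), with 52 and 69 reads in the 60 kPa libraries. Both calls remained with any 1 of the 4 libraries left out.

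Beside the 400 Pa gel at 5 mM glucose, TXNIP and PDK4 lay between the compared groups. TXNIP was at 54.5 and 54.9 FPKM there, and its differences were -1.35 ± 0.11 for 60 kPa (-1.51 after GC correction) and 1.15 for high glucose (0.93 after it). Its levels at 1 and 6 kPa were 45.7, 42.8, 21.7 and 26.8 FPKM. PDK4 was at 10.1 and 9.66 FPKM on 400 Pa at 5 mM, and differed by -1.63 ± 0.12 on 60 kPa (-2.09 after GC correction) and by 0.81 in high glucose (adjusted p = 0.00669). For high glucose the PDK4 difference was 0.29 after GC correction and no longer passed (adjusted p = 0.206). TXNIP is annotated on chromosome 1 from 145439347 to 145442644 and PDK4 on chromosome 7 from 95212809 to 95225925 in hg19.

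The rest of the glucose-sensing list did not follow TXNIP past the test. Of its 12 genes 9 passed the filter on low values, and 1, TXNIP, fell (median -0.16). At an unadjusted p under 0.05, 1 of the 9 was higher and 4 lower, against 6.73% and 7.86% of all genes tested. After GC correction 3 of the 9 were called lower (3.26% of all genes) and in voom 4 (6.29%), and neither called a member higher. ARRDC4, the other arrestin-fold target of MondoA, was at 1.18 and 0.898 FPKM on 60 kPa and 2.56 and 2.75 FPKM in high glucose, a difference of -0.85 ± 0.20 (adjusted p = 0.0771). After GC correction ARRDC4 passed at an adjusted p of 0.0337. SLC2A1, the main glucose transporter, and HK2, the inducible hexokinase, differed by 0.01 (95% interval -0.27 to 0.29) and 0.02 (-0.31 to 0.34). In the pyruvate dehydrogenase list PDK4 was the only one of 14 genes called (median -0.13). At an unadjusted p under 0.05, 0 of the 14 were higher and 4 lower, and voom called 1 higher and 5 lower.

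**Figure D2:**
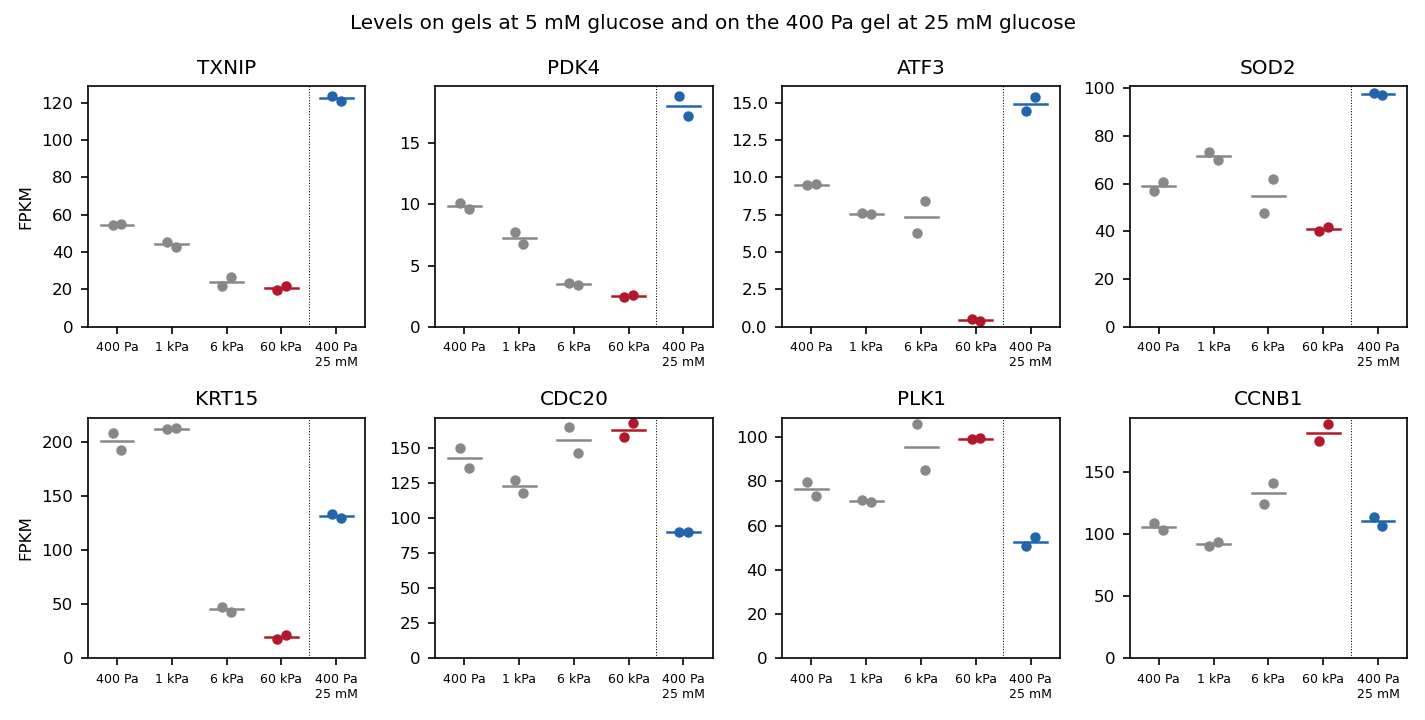
FPKM of 8 genes in each library (points) with group means (bars), for 400 Pa, 1 kPa, 6 kPa and 60 kPa at 5 mM glucose, then, right of the dotted line, 400 Pa at 25 mM glucose. TXNIP is at 20.0 and 21.9 on 60 kPa against 124 and 121 in high glucose, and ATF3 is near 0 on 60 kPa alone.

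Genes of the FOXO and glucocorticoid response, which rise when growth factor signalling is low or steroid is present, were lower on 60 kPa. Of 22 listed genes 20 passed the filter, 10 fell and 0 rose, and the list's median was -0.77. Of the 20, 17 had both 60 kPa libraries below both high glucose libraries, against 24.9% of all genes tested. All lists here were chosen with earlier results of these data known, so such a share describes the members and tests nothing. TSC22D3 (GILZ), a glucocorticoid-induced leucine zipper protein, was at 21.0 and 21.0 FPKM on 60 kPa and 64.3 and 68.5 FPKM in high glucose, and fell by 1.62 ± 0.10 (limma, adjusted p = 0.000155). CDKN1C, the cell cycle inhibitor p57, was at 2.04 and 3.28 FPKM against 8.82 and 9.41 FPKM and fell by 1.49 ± 0.23. BCL6, a transcriptional repressor, was at 3.44 and 2.83 FPKM against 7.54 and 8.39 FPKM and fell by 1.12 ± 0.14. These 3 were among the 17 without overlap.

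The other called members were chosen for mention after their values were seen. ERRFI1, a feedback inhibitor of the EGF receptor, was at 15.8 and 15.6 FPKM on 60 kPa and 35.2 and 34.2 FPKM in high glucose and fell by 1.10 ± 0.11. FOXO1 itself fell by 0.65 ± 0.13, the insulin receptor substrate IRS2 by 0.99 ± 0.14, and KLF9 by 1.00 ± 0.20 at an adjusted p of 0.0496. YPEL5, ZBTB16 and DUSP1 fell by 0.91, 0.88 and 0.66. Also chosen with values seen were FOXO3, at -0.59 (limma, adjusted p = 0.0862), and 3 classical glucocorticoid targets. None of them was called, with FKBP5 at -0.36, SGK1 at -0.33 and PER1 at -0.24. PNRC1, a nuclear receptor coactivator, was at 9.21 and 11.8 FPKM on 60 kPa and 34.7 and 37.5 FPKM in high glucose and fell by 1.70 ± 0.13. After GC correction 14 of the list were called lower (3.26% of all genes). Of the 10 list members and PNRC1, TSC22D3, ERRFI1 and PNRC1 passed with any library left out, while 7 lost the call without the shallower 60 kPa library (adjusted p 0.0954 to 0.210), 4 without the deeper 60 kPa library (0.0526 to 0.0603), 8 without the deeper high glucose library (0.0973 to 0.232) and 7 without the shallower one (0.0661 to 0.271).

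Several stress-induced transcription factors fell on the stiff gel, and ATF3 had the largest fall of all named genes. ATF3, a factor of the ATF and CREB family induced by many stresses, was at 0.534 and 0.365 FPKM in the 60 kPa libraries and at 14.5 and 15.4 FPKM in the high glucose libraries. That is 6 and 5 reads against 176 and 209 reads, and the difference was -3.46 ± 0.14 (limma, adjusted p = 1.11e-05). On 400 Pa at 5 mM glucose ATF3 was at 9.47 and 9.54 FPKM, so the 60 kPa libraries stood apart from both soft-gel groups. The differences against 400 Pa were -2.86 ± 0.14 for 60 kPa (-2.95 after GC correction) and 0.60 for high glucose (adjusted p = 0.0196), which was 0.46 after GC correction and no longer passed (adjusted p = 0.0704). On 1 and 6 kPa gels the ATF3 level was between 6.31 and 8.40 FPKM. The gene spans 212738676 to 212794119 on chromosome 1 in hg19.

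Of 18 tested immediate early genes 7 fell and 0 rose (median -0.54), and of 23 tested ATF4 targets 5 fell and 0 rose (median -0.32), ATF3 being on both lists. FOS, a partner in the AP-1 dimer, was at 3.73 and 3.25 FPKM on 60 kPa and 9.23 and 8.64 FPKM in high glucose and fell by 1.15 ± 0.13. JUNB, another AP-1 subunit, was at 19.2 and 22.0 FPKM against 37.6 and 41.2 FPKM and fell by 0.91 ± 0.16. FOSB, FOSL2, KLF6 and DUSP1, named after their values were seen, fell by 1.37, 0.86, 0.67 and 0.66. JUND, also picked that way, was at -0.57 (adjusted p = 0.0731). Both 60 kPa libraries lay above both high glucose libraries for 3 of the 18 immediate early genes, against 23.9% of all genes tested. FOSL1, another AP-1 subunit named with its value seen, was highest in that list at 0.50 (adjusted p = 0.0974, and 0.00654 after GC correction).

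Among ATF4 targets, ASNS, which makes asparagine, was at 16.2 and 19.9 FPKM on 60 kPa and 41.1 and 40.8 FPKM in high glucose and fell by 1.14 ± 0.14. Its exons are shared with the readthrough gene CZ1P-ASNS, which fell by 1.12, so the reads of these genes cannot be told apart. DDIT3 (CHOP), a factor of the integrated stress response, was at 9.05 and 6.50 FPKM against 19.5 and 17.3 FPKM and fell by 1.16 ± 0.21. CHAC1, which degrades glutathione, and STC2, a secreted glycoprotein, fell by 1.44 and 0.79, and ATF4 itself was at -0.41 (adjusted p = 0.0606). PPP1R15A (GADD34), the phosphatase subunit that ends the response, was at 5.38 and 4.65 FPKM against 15.1 and 15.3 FPKM and fell by 1.43 ± 0.12. CHAC1, STC2, ATF4 and PPP1R15A were named after their values were seen. Of 20 p53 targets 2 fell (median -0.27), where 1.32% of all genes tested fell. BTG2 fell by 0.71 and BBC3, named after its value was seen, by 0.90.

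After GC correction 12 immediate early genes were called lower and 1 higher, and 10 ATF4 targets were called lower. Over all genes 3.26% were lower and 3.79% higher after that correction. Of 14 called stress genes of these paragraphs, ATF3 and PPP1R15A passed with any library left out. Without the shallower 60 kPa library 11 lost the call (adjusted p 0.0544 to 0.190), without the deeper 60 kPa library 5 (0.0785 to 0.207), without the deeper high glucose library 11 (0.0549 to 0.248) and without the shallower high glucose library 12 (0.0686 to 0.256).

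NF-kB genes and the mitochondrial superoxide dismutase were lower on 60 kPa as well. Of 18 tested NF-kB genes 4 fell and 0 rose (median -0.47). Both 60 kPa libraries lay below both high glucose libraries for 14 of the 18, against 24.9% of all genes tested. This list too was chosen with earlier results known. CXCL8, the neutrophil chemokine IL-8, was at 3.41 and 4.37 FPKM on 60 kPa and 16.8 and 20.5 FPKM in high glucose and fell by 2.01 ± 0.19 (limma, adjusted p = 0.00277). BIRC3, an inhibitor of apoptosis, was at 6.90 and 6.88 FPKM against 18.0 and 15.6 FPKM and fell by 1.17 ± 0.13. TNFAIP3 (A20), the feedback inhibitor of NF-kB, and CXCL2, named after their values were seen, fell by 1.40 and 1.31. CXCL1 and NFKBIA, picked the same way, were at -0.68 (adjusted p = 0.0765) and -0.48 (0.0934).

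SOD2, which is an NF-kB target and converts superoxide to hydrogen peroxide in mitochondria, was at 40.0 and 41.7 FPKM on 60 kPa and 98.0 and 96.9 FPKM in high glucose. It fell by 1.24 ± 0.12 (adjusted p = 0.00277) and was the only called member of the 23 tested antioxidant enzymes, whose median was -0.08. On 400 Pa at 5 mM SOD2 was at 57.1 and 60.7 FPKM, with differences of -0.52 for 60 kPa (-0.61 after GC correction) and 0.72 for high glucose (0.58 after it). CXCL8 was at 5.68 and 5.64 FPKM there. The CXCL8 differences against 400 Pa were -0.45 for 60 kPa (limma, adjusted p = 0.126) and -1.14 after GC correction (limma, adjusted p = 0.00263), and 1.55 for high glucose (0.84 after GC correction), so how far 60 kPa lay from 400 Pa depended on that correction. CXCL8, TNFAIP3 and SOD2 passed with any library left out. BIRC3 and CXCL2 did not: both lost the call without the shallower 60 kPa library (adjusted p 0.0501 and 0.0897) and without the shallower high glucose library (0.0661 and 0.0821), and CXCL2 alone without the deeper 60 kPa (0.0865) or the deeper high glucose library (0.130).

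Among genes of epithelial differentiation and of cell junctions the called changes on the stiff gel were mostly falls. KRT15, a keratin of basal and progenitor cells of stratified epithelia, was at 17.9 and 21.6 FPKM in the 60 kPa libraries and at 134 and 130 FPKM in the high glucose libraries. It fell by 2.69 ± 0.11 (limma, adjusted p = 1.11e-05). KRT15 was at 209 and 193 FPKM on 400 Pa at 5 mM and at 212 and 213 FPKM on 1 kPa, against 47.7 and 43.2 FPKM on 6 kPa, so every library on a 400 Pa or 1 kPa gel lay above those on 6 and 60 kPa. Its differences against 400 Pa were -3.29 for 60 kPa (-3.09 after GC correction) and -0.60 for high glucose (-0.40 after it). PPL (periplakin), which links keratins to desmosomes and the cornified envelope, was at 4.39 and 4.62 FPKM against 15.6 and 16.3 FPKM and fell by 1.62 ± 0.10.

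The basal keratins differed among themselves (KRT5 and KRT14 were named after their values were seen). KRT5 was at 1225 and 1357 FPKM on 60 kPa and 1154 and 1135 FPKM in high glucose, and KRT14 at 175 and 195 FPKM against 147 and 147 FPKM, with differences of 0.17 (adjusted p = 0.440) and 0.33 (0.251). After GC correction KRT14 passed as higher (adjusted p = 0.00602). KRT16, which marks activated keratinocytes, was at 13.6 and 16.6 FPKM against 26.7 and 27.5 FPKM and fell by 0.81 ± 0.16, while KRT5 and KRT14 were not called. The keratin genes resemble each other, and the sources used here do not say how reads matching several of them were assigned.

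Of 29 cornification genes 17 passed the filter, 5 fell and 0 rose, with a median of -0.62, where 1.32% of all genes tested fell. SPRR1B, a cornified envelope precursor, was at 1.39 and 2.50 FPKM on 60 kPa and 7.95 and 10.3 FPKM in high glucose and fell by 1.80 ± 0.20 on 5 and 11 reads, against 31 and 45 reads in high glucose. S100P was at 10.8 and 17.4 FPKM against 39.3 and 46.2 FPKM and fell by 1.56 ± 0.24, and S100A8, a subunit of calprotectin, was at 15.3 and 10.9 FPKM against 24.9 and 28.8 FPKM and fell by 1.00 ± 0.17. KRT10 and the protease KLK7, named after their values were seen, fell by 0.92 and 1.06. Of 12 tested luminal markers 4 fell and 0 rose (median -0.34), against the same 1.32%. MUC1, the apical mucin, was at 34.2 and 35.3 FPKM against 63.4 and 64.3 FPKM and fell by 0.86 ± 0.16, and CD24 was at 41.8 and 45.5 FPKM against 73.9 and 70.4 FPKM and fell by 0.71 ± 0.11. The epithelial transcription factors ELF3 and EHF, chosen after their values were seen, fell by 1.40 and 1.02. KRT18, picked the same way, was at 0.05 (95% interval -0.22 to 0.32). In pooled cultures, fewer cells of a type and less RNA per cell cannot be told apart.

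Junction genes fell in 6 of 20 tested and rose in 0 (median -0.39), where 1.32% of all genes tested fell. Both 60 kPa libraries lay below both high glucose libraries for 16 of the 20, against 24.9% of all genes tested. The junction list was likewise chosen with earlier results known. The tight junction claudins were the largest falls: CLDN7 was at 13.4 and 11.7 FPKM on 60 kPa and 31.6 and 33.6 FPKM in high glucose and fell by 1.31 ± 0.15. CLDN1 was at 4.46 and 4.88 FPKM against 12.5 and 12.8 FPKM and fell by 1.27 ± 0.16. DSG3, a desmosomal cadherin, was at 11.5 and 13.5 FPKM against 24.7 and 24.3 FPKM and fell by 0.92 ± 0.12. E-cadherin (CDH1), PERP and desmoplakin (DSP), named after their values were seen, fell by 0.71, 0.48 and 0.46. For CLDN7, CLDN1, DSG3, CDH1, PERP and DSP, 60 kPa minus 400 Pa at 5 mM was -1.71, -0.42, -0.24, -0.39, -0.15 and 0.05. After GC correction it was -1.49, -0.79, -0.56, -0.45, -0.54 and -0.03. High glucose minus 400 Pa was -0.40, 0.85, 0.68, 0.33, 0.33 and 0.52, and after GC correction -0.16, 0.42, 0.29, 0.22, -0.11 and 0.40. Of 15 tested genes of acid, sodium and water transport 6 fell and 0 rose (median -0.22), against 1.32% falls over all genes. The aquaporin AQP3 was at 4.49 and 5.26 FPKM against 18.8 and 12.9 FPKM and fell (95% interval of the difference -1.91 to -1.10), the epithelial sodium channel subunit SCNN1B was at 6.54 and 6.83 FPKM against 16.8 and 21.6 FPKM and fell by 1.38 ± 0.16, and FXYD3, a regulator of the sodium pump, was at 15.3 and 17.8 FPKM against 39.1 and 41.8 FPKM and fell by 1.24 ± 0.11. SCNN1G and the carbonic anhydrase CA2, picked after their values were seen, fell by 0.76 and 0.66.

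After GC correction the counts called lower were 5 for cornification, 5 for luminal markers and 6 for junctions, against 3.26% of all genes. Of 23 called epithelial genes named in these paragraphs, KRT15, PPL and FXYD3 passed with any library left out. Without the shallower 60 kPa library 17 lost the call (adjusted p 0.0557 to 0.235), without the deeper 60 kPa library 10 (0.0664 to 0.220), without the deeper high glucose library 19 (0.0549 to 0.249) and without the shallower high glucose library 16 (0.0506 to 0.279).

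**Figure D3:**
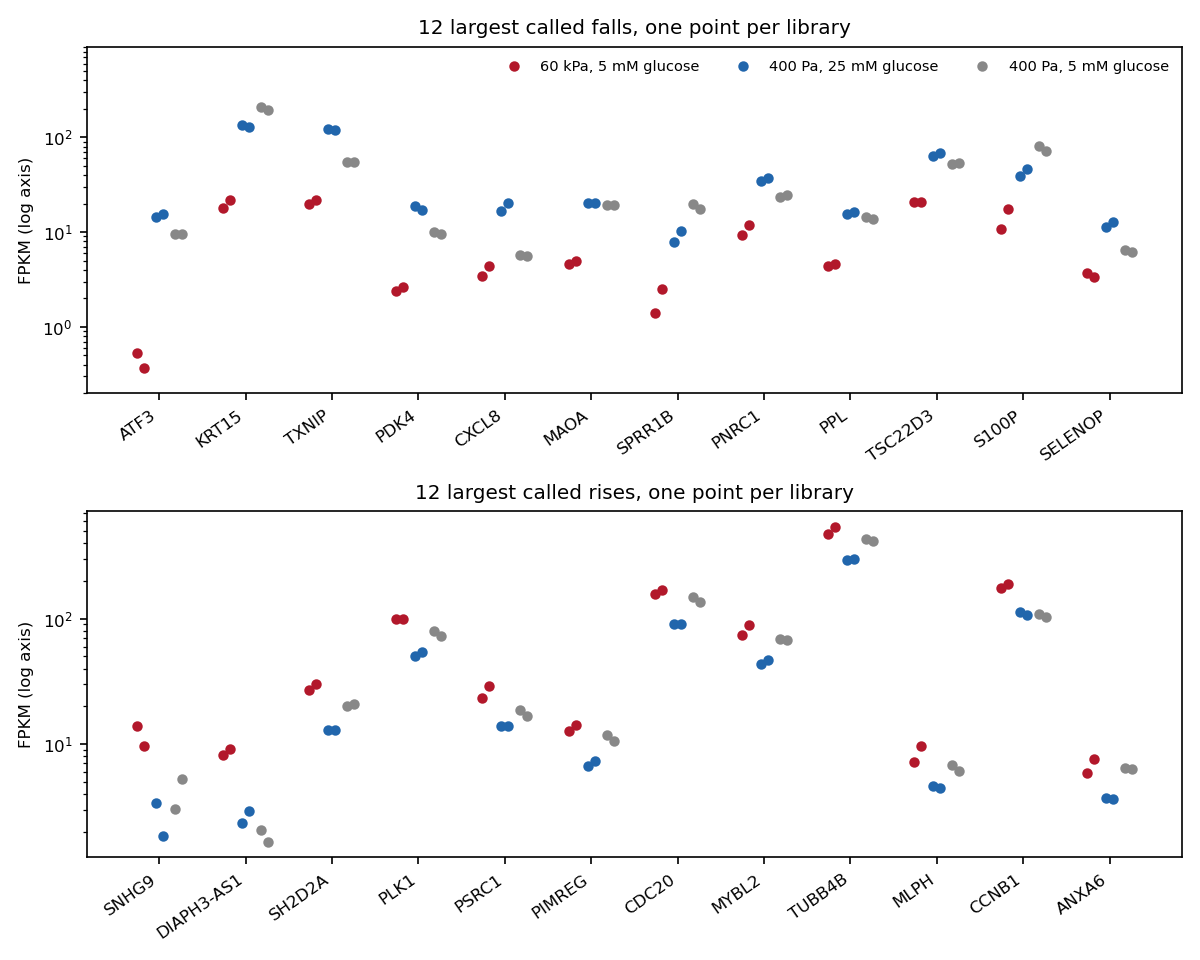
FPKM (log axis) of the 12 largest called falls and 12 largest called rises among genes averaging 5 FPKM or more, with 1 point per library: red, 60 kPa at 5 mM; blue, 400 Pa at 25 mM; grey, 400 Pa at 5 mM glucose. KRT15 is at 17.9 and 21.6 on 60 kPa against 134 and 130 in high glucose, and CDC20 at 158 and 168 against 90.5 and 90.3.

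Targets of NRF2, the factor that responds to electrophiles and oxidants, were called lower in 5 of 24 tested and higher in 0 (median -0.12). Over all genes tested 1.32% were called lower. ALDH3A1, an aldehyde dehydrogenase, was at 45.8 and 51.9 FPKM on 60 kPa and 96.0 and 101 FPKM in high glucose and fell by 1.00 ± 0.09 (limma, adjusted p = 0.00188). On 400 Pa at 5 mM it was at 222 and 207 FPKM, with differences of -2.12 for 60 kPa (-1.86 after GC correction) and -1.11 for high glucose (-0.84 after it). AKR1C1, an aldo-keto reductase, was at 39.4 and 42.9 FPKM against 65.1 and 69.3 FPKM and fell by 0.70 ± 0.13. SQSTM1 (p62), the autophagy receptor, was at 113 and 125 FPKM against 183 and 188 FPKM and fell by 0.64 ± 0.12. AKR1C3 and the ferritin chain FTH1, chosen after their values were seen, fell by 0.62 and 0.59; AKR1C genes resemble each other and FTH1 has processed copies, so these 3 values are uncertain. NFE2L2, which encodes NRF2, was at 26.1 and 30.0 FPKM against 39.5 and 36.3 FPKM, a difference of -0.42 ± 0.11 (adjusted p = 0.103, and 0.0176 after GC correction). After GC correction 9 targets were called lower (3.26% of all genes). ALDH3A1 alone passed with any library left out. The other 4 lost the call without the shallower 60 kPa library (adjusted p 0.0806 to 0.197), the deeper high glucose (0.144 to 0.203) or the shallower high glucose library (0.171 to 0.256), and 3 of them without the deeper 60 kPa library (0.103 to 0.110).

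Genes of cell division were higher on the stiff gel. Of 37 genes of S and G2/M phase, all of which passed the filter, 8 rose and 0 fell, and the median was 0.45. Both 60 kPa libraries lay above both high glucose libraries for 36 of the 37, against 23.9% of all genes tested. Like the others, the list was chosen with earlier results of these data known. PLK1, the polo-like kinase of mitosis, was at 99.3 and 99.5 FPKM on 60 kPa and 50.9 and 54.8 FPKM in high glucose and rose by 0.90 ± 0.11 (limma, adjusted p = 0.00722). CDC20, the activator of the anaphase-promoting complex, was at 158 and 168 FPKM against 90.5 and 90.3 FPKM and rose by 0.84 ± 0.10 (adjusted p = 0.00535). CCNB1, cyclin B1, was at 175 and 189 FPKM against 114 and 107 FPKM and rose by 0.72 ± 0.09 (adjusted p = 0.00782). CDC20 spans 43824626 to 43828873 on chromosome 1 and PLK1 23690093 to 23701688 on chromosome 16 in hg19.

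Outside that list MYBL2, PSRC1, PIMREG and TUBB4B, regulators and spindle parts, also rose. MYBL2, which encodes B-MYB, was at 73.8 and 89.1 FPKM on 60 kPa and 43.7 and 46.9 FPKM in high glucose and rose by 0.83 ± 0.11. PSRC1, a spindle protein, was at 23.3 and 29.1 FPKM against 14.0 and 13.8 FPKM and rose by 0.86 ± 0.13, and PIMREG, a mitotic regulator, was at 12.8 and 14.2 FPKM against 6.66 and 7.37 FPKM and rose by 0.85 ± 0.11. TUBB4B, a β-tubulin, was at 474 and 541 FPKM against 297 and 298 FPKM and rose by 0.77 ± 0.11. Named after their values were seen, FOXM1 rose by 0.60, BIRC5 by 0.59, TPX2 and KIF20A by 0.55 each, AURKA by 0.46 and the helicase subunit MCM2 by 0.42. Tubulins TUBB, TUBA1B, TUBA1C, TUBA4A and TUBG1, also chosen with their values seen, rose by 0.66, 0.59, 0.64, 0.70 and 0.58, and reads may be shared between tubulin copies. Among list members not called, also picked with values seen, the kinetochore motor CENPE was at 0.74 (limma, adjusted p = 0.0628), TOP2A at 0.48 (0.126) and MKI67 at 0.31 (0.213).

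Against 400 Pa at 5 mM glucose, with CDC20 at 150 and 136 FPKM and PLK1 at 79.7 and 73.3 FPKM, the differences for 60 kPa were 0.19 for CDC20 (adjusted p = 0.182) and 0.37 for PLK1 (0.0444), and for high glucose -0.65 (0.00669) and -0.53 (0.0141). After GC correction they were 0.40 and 0.59 for 60 kPa (adjusted p = 0.00295 and 0.00130, so CDC20 then passed), and -0.43 and -0.30 for high glucose (0.00777 and 0.0388). CCNB1 was at 109 and 103 FPKM on 400 Pa at 5 mM, with differences of 0.77 for 60 kPa (adjusted p = 0.00230) and 0.06 for high glucose (0.683). After GC correction CCNB1 was at 0.48 for 60 kPa (0.00214) and at -0.30 for high glucose, where it changed sign and passed (0.0294).

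After GC correction 31 of the 37 genes were called higher (3.79% of all genes), and in voom 33 (7.46%). Neither called a member lower. With 1 library left out few rises passed: of 18 called genes of cell division, regulators and tubulins, 12 lost the call without the shallower 60 kPa library (adjusted p 0.0524 to 0.182), 16 without the deeper 60 kPa library (0.0500 to 0.234), 18 without the deeper high glucose library (0.0683 to 0.267) and 18 without the shallower high glucose library (0.0637 to 0.330).

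**Figure D4:**
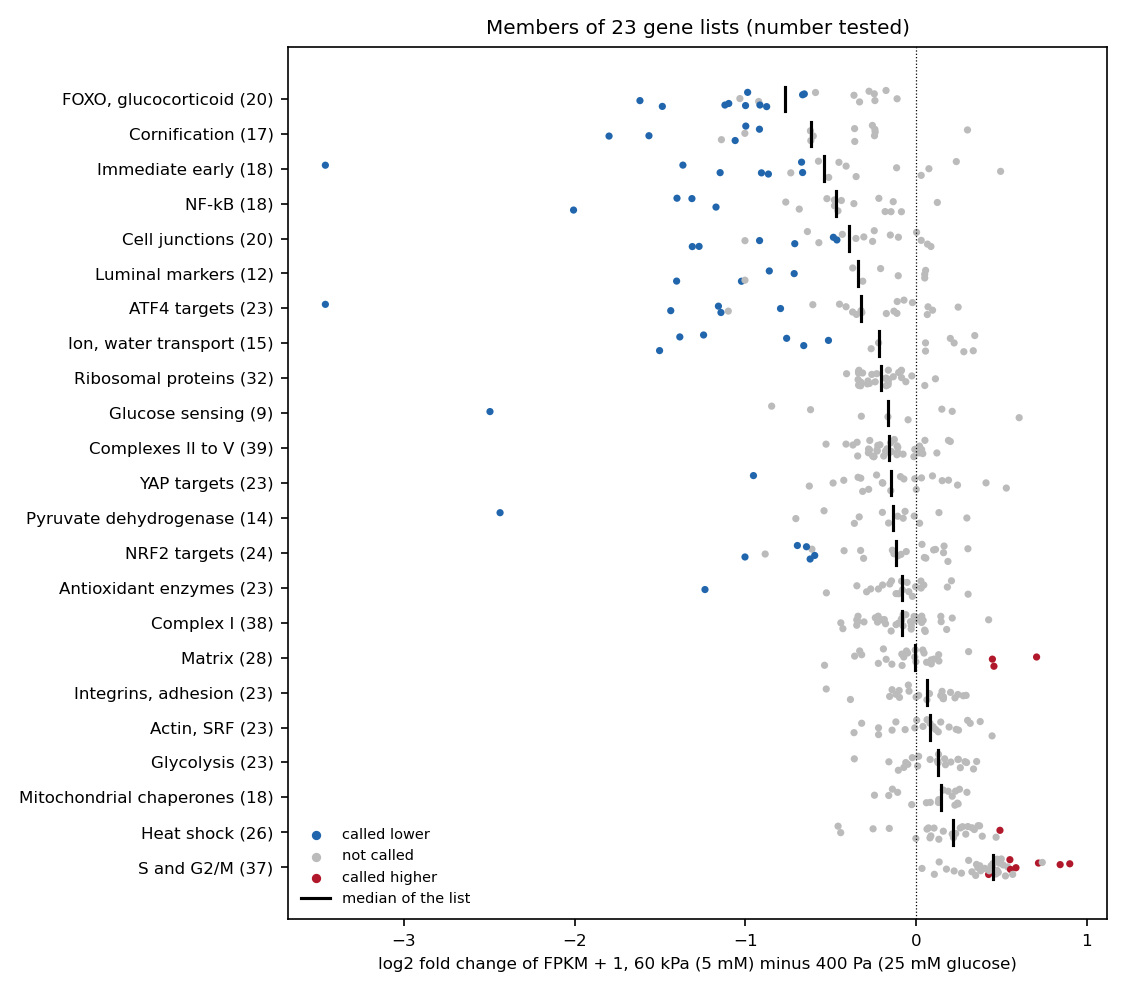
Log2 difference of FPKM + 1 (60 kPa at 5 mM glucose minus 400 Pa at 25 mM glucose) of the tested members of 23 gene lists, with 1 point per gene and a bar at each list's median. Medians run between -0.77 for FOXO and glucocorticoid genes and 0.45 for S and G2/M genes, against -0.00 over all genes tested.

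Few matrix genes and classical stiffness reporters were called. Of 28 tested matrix genes 3 rose and 0 fell (median -0.01). At an unadjusted p under 0.05 in limma, 3 were higher and 4 lower, against 6.73% and 7.86% of all genes tested. Voom called 4 higher and 7 lower. TGFBI, a secreted integrin-binding protein, was at 897 and 985 FPKM on 60 kPa and 673 and 697 FPKM in high glucose and rose by 0.46 ± 0.08 (limma, adjusted p = 0.0228). On 400 Pa at 5 mM TGFBI was at 1026 and 973 FPKM. Its differences against 400 Pa were -0.09 for 60 kPa (0.03 after GC correction) and -0.54 for high glucose (-0.43 after it). FN1 was at 24.7 and 25.1 FPKM against 24.7 and 25.4 FPKM, with a 95% interval of -0.21 to 0.19.

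Of 23 tested YAP targets 0 rose and 1 fell (median -0.15). At an unadjusted p under 0.05 in limma, 2 were higher and 3 lower, against 6.73% and 7.86% of all genes tested. Voom called 1 higher and 6 lower. CTGF, the connective tissue growth factor and a standard reporter of YAP, was at 8.62 and 10.1 FPKM on 60 kPa and 18.6 and 19.4 FPKM in high glucose and fell by 0.95 ± 0.12 (adjusted p = 0.00722). CYR61, its close relative, was at 14.0 and 14.3 FPKM against 20.6 and 19.7 FPKM, a difference of -0.49 ± 0.12 (adjusted p = 0.105, and 0.0299 after GC correction). On 400 Pa at 5 mM CTGF was at 17.0 and 16.1 FPKM, with differences of -0.76 for 60 kPa (-0.73 after GC correction) and 0.19 for high glucose (0.20 after it). None of 23 tested actin and SRF genes and none of 23 integrin and adhesion genes was called in limma. At an unadjusted p under 0.05 there were 4 higher and 1 lower for actin and 1 and 2 for integrins, and voom called 9 higher and 2 lower for actin and 5 and 2 for integrins. ACTB was at 2435 and 2684 FPKM against 1862 and 1892 FPKM, a difference of 0.45 ± 0.10 (adjusted p = 0.0731, and 0.00285 after GC correction), and ITGB1, the β1 integrin, was at -0.04 (95% interval -0.31 to 0.23).

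Neither TGFBI nor CTGF passed with every library left out in turn. Without the shallower 60 kPa library CTGF lost the call (adjusted p = 0.0616), and without the deeper 60 kPa library TGFBI did (0.0972). Both lost it without the deeper high glucose library (0.167 for TGFBI and 0.0969 for CTGF) and without the shallower high glucose library (0.238 and 0.0736).

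Beside the pyruvate dehydrogenase list, 8 lists of metabolic and mitochondrial genes held no calls in the limma fit. There 0 genes were called among 23 of glycolysis (median 0.13), 17 of the pentose phosphate and hexosamine pathways (0.04), 10 of the osmotic response (0.00), 20 of the TCA cycle (0.03), 38 of complex I (-0.08), 39 of complexes II to V (-0.16), 18 mitochondrial chaperones and proteases (0.15) and 17 of mitochondrial fission and fusion (0.00). Over all 12820 genes 863 were higher (6.73%) and 1008 lower (7.86%) at an unadjusted p under 0.05, and voom called 956 higher (7.46%) and 806 lower (6.29%). Genes at an unadjusted p under 0.05, higher and lower, numbered 6 and 1 for glycolysis, 0 and 1 for pentose phosphate, 1 and 1 for the osmotic response, 0 and 1 for the TCA cycle, 0 and 5 for complex I, 0 and 8 for complexes II to V, 2 and 0 for chaperones and 2 and 0 for fission and fusion. Voom called 9 and 1 for glycolysis, 0 and 1 for pentose phosphate, 0 and 1 for the osmotic response, 2 and 2 for the TCA cycle, 1 and 3 for complex I, 1 and 10 for complexes II to V, 6 and 0 for chaperones and 3 and 0 for fission and fusion. GAPDH was at 2113 and 2392 FPKM on 60 kPa and 2117 and 2130 FPKM in high glucose (difference 0.08, 95% interval -0.10 to 0.26). ENO1, enolase, was at 1421 and 1623 FPKM against 1252 and 1285 FPKM (0.26 ± 0.08, adjusted p = 0.197, and 0.0214 after GC correction). ATP5F1B, the β subunit of ATP synthase, differed by -0.08 and the mitochondrial chaperonin HSPD1 by 0.21 (adjusted p = 0.461, and 0.0186 after GC correction). HSF1 and YME1L1, a protease of the inner membrane, differed by 0.11 (-0.18 to 0.39) and -0.16 (-0.42 to 0.10).

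Chaperone, endoplasmic reticulum and sterol lists had 1 call each, all higher on 60 kPa than in high glucose, as were 0.429% of all genes tested. FKBP4, an HSP90 co-chaperone, was at 79.2 and 91.4 FPKM on 60 kPa and 58.8 and 61.7 FPKM in high glucose and rose by 0.49 ± 0.10 (limma, adjusted p = 0.0427), among 26 tested heat shock genes with a median of 0.22. CALR, calreticulin, was at 381 and 439 FPKM against 295 and 278 FPKM and rose by 0.51 ± 0.09 among 20 tested genes (median 0.11). NSDHL, an enzyme of cholesterol synthesis, was at 31.0 and 32.6 FPKM against 18.9 and 21.3 FPKM and rose by 0.64 ± 0.10 among 24 (median 0.15). For FKBP4, CALR and NSDHL, 60 kPa minus 400 Pa at 5 mM was 0.08, 0.01 and 0.20 (0.11, 0.13 and 0.20 after GC correction). High glucose minus 400 Pa was -0.41, -0.50 and -0.44 (-0.41, -0.39 and -0.46 after GC correction). ACSL1, which activates fatty acids, was at 32.6 and 37.8 FPKM against 55.0 and 60.0 FPKM and fell by 0.70 ± 0.11, the only call of 19 genes (median -0.03). BNIP3L, a mitophagy receptor, fell by 0.77 among 19 hypoxia genes, and OAS1, named after its value was seen, by 0.71 among 17 interferon genes. After GC correction 10 heat shock genes, 4 of the endoplasmic reticulum and 7 of cholesterol synthesis were called higher (3.79% of all genes). Lower were 1 heat shock and 1 endoplasmic reticulum gene (3.26% of all genes). These 6 calls were all lost without the shallower 60 kPa library (adjusted p 0.0557 to 0.218), the deeper high glucose library (0.0973 to 0.230) or the shallower high glucose library (0.121 to 0.316), and 5 without the deeper 60 kPa library (0.0832 to 0.176).

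Among EGF receptors and ligands 0 of 11 were called in limma (0 higher and 2 lower at an unadjusted p under 0.05, and 0 and 2 in voom), with EGFR at -0.04. Among 24 lysosomal genes 0 were called (1 higher and 3 lower at an unadjusted p under 0.05, and 0 and 3 in voom). PSAP, the saposin precursor, was at 119 and 136 FPKM on 60 kPa and 171 and 174 FPKM in high glucose, a difference of -0.43 ± 0.10 (adjusted p = 0.0691, and 0.00189 after GC correction).

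The remaining large changes belonged to none of these groups. MAOA, the monoamine oxidase of the mitochondrial outer membrane, was at 4.66 and 4.98 FPKM on 60 kPa and 20.1 and 20.1 FPKM in high glucose and fell by 1.86 ± 0.13 (limma, adjusted p = 0.000286). On 400 Pa at 5 mM it was at 19.1 and 19.4 FPKM, with differences of -1.80 for 60 kPa (-2.09 after GC correction) and 0.06 for high glucose (-0.29 after it). SELENOP, the selenium transport protein, was at 3.67 and 3.32 FPKM against 11.4 and 12.7 FPKM and fell by 1.53 ± 0.15. SH2D2A, an adaptor with an SH2 domain, was at 27.1 and 30.0 FPKM against 12.9 and 12.9 FPKM and rose by 1.08 ± 0.12. The largest called rise among genes averaging at least 5 FPKM, SNHG9, is a short host RNA measured at 14.0 and 9.70 FPKM against 3.41 and 1.83 FPKM (1.84 ± 0.28), from 19 and 16 reads on 60 kPa against 5 and 3. DIAPH3-AS1 was at 8.12 and 9.17 FPKM against 2.35 and 2.94 FPKM (1.41 ± 0.19), from 16 and 22 reads on 60 kPa against 5 and 7. The counting command sets no strand option. The neighbouring gene DIAPH3, whose counted transcript does not overlap it, was at 0.13 (adjusted p = 0.719). MLPH and the annexin ANXA6 rose by 0.76 and 0.72. MAOA and SELENOP passed with any library left out. Of the other 5, 3 lost the call without the shallower 60 kPa library (adjusted p 0.0670 to 0.127), 4 without the deeper 60 kPa library (0.0526 to 0.207), 5 without the deeper high glucose library (0.0582 to 0.211) and 4 without the shallower high glucose library (0.0585 to 0.253).

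Signs of RNA quality moved with the comparison. The summed level of 32 ribosomal protein genes was 19150.5 and 21812 FPKM on 60 kPa and 23562 and 23624 FPKM in high glucose. None of them was called in limma, 0 were higher and 13 lower at an unadjusted p under 0.05, and voom called 23 lower (median -0.20). A list of noncoding RNAs taken as nuclear-retained summed to 717 and 762 FPKM against 1026 and 998 FPKM. Its only called member, GAS5, was at 118 and 137 FPKM against 222 and 233 FPKM and fell by 0.84 ± 0.12 (limma, adjusted p = 0.0147). GAS5 thus made up part of that sum, and where its RNA lay in the cell was not measured. Replication-dependent histones summed to 36.6 and 36.0 FPKM against 57.7 and 52.1 FPKM, with 1 of 10 called, HIST1H2AC at -1.38, named after its value was seen. In all 3 lists both 60 kPa sums lay below both high glucose sums.

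Of the markers of other cell types, 12 were at 0 in all 4 libraries. Of 9 fibroblast markers 3 passed the filter, with sums of 18.8 and 18.1 FPKM on 60 kPa and 25.7 and 25.7 FPKM in high glucose, and COL1A2, COL3A1, PDGFRA and THY1 were at 0 in all 4 libraries. DCN, decorin, fell by 0.61 ± 0.11, and FAP was at 6.62 and 6.21 FPKM on 60 kPa against 6.35 and 7.92 FPKM in high glucose. Of 10 leukocyte markers 3 passed, with sums of 10.0 and 15.4 FPKM against 18.0 and 16.7 FPKM, and PTPRC, CD3E, ITGAM, HLA-DRA and CD163 were at 0. CD68, CD14 and CSF1R were above 0 in all 4 libraries, with CD68 at 7.54 and 8.96 FPKM against 10.0 and 10.3 FPKM. Of 6 endothelial markers ENG alone passed, with sums of 13.0 and 12.9 FPKM against 8.91 and 11.4 FPKM, and CDH5 and VWF were at 0. No leukocyte or endothelial marker was called in limma, 1 leukocyte marker was lower at an unadjusted p under 0.05, and voom called 1 endothelial marker higher. The epithelial markers KRT5, KRT7 and EPCAM were present in every library. Other luminal markers were not: PROM1 and TFAP2B were at 0 in all 4. KRT19 was at 0 and 0.096 FPKM on 60 kPa and 0.431 and 0.193 FPKM in high glucose. The calls of GAS5, HIST1H2AC and DCN were lost without the shallower 60 kPa library (adjusted p 0.107 to 0.246), without the deeper high glucose library (0.0700 to 0.149) and without the shallower high glucose library (0.118 to 0.301), and 2 of them without the deeper 60 kPa library (0.0740 and 0.132).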

How the data were processed

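The submitters' processing notes name STAR, HOMER, DESeq2 and hg19, without versions or settings. The FPKM values of 27942 genes were made by the authors with HOMER's analyzeRepeats.pl over exons, 1 transcript per gene and no strand option, per the file headers, and were deposited rounded to 3 decimals. Library totals were read from the column names of 2 deposited tables of variance-stabilised log2 values, whose values were not used. Other deposited tables hold selected rows of these and were not used.

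From FPKM, log2(FPKM + 1) was taken for genes whose mean over 10 libraries reached 0.5 FPKM. It was modelled in limma 3.58.1 (R 4.3.3; moderated with a trend) with 5 groups, 5 residual degrees of freedom and prior degrees of freedom of 3.98, and tested 2-sided with Benjamini-Hochberg adjustment over all genes. The labels call the libraries biological replicates, and the columns carry no replicate number. Whole reads recovered from FPKM, length and total lay within 0.12 of a whole number for 100% of values checked in 6 libraries. GC content came from GENCODE v29 transcripts matched through RefSeq, for 98.7% of genes tested, and a curve with 5 degrees of freedom was removed per library as an alternative. The fit was also run on simulated counts without GC profiles or differences between the other groups. That run does not bear on how these features move the calls. Promoters are from RefSeq on GRCh38.p14, and gene positions from the files are on hg19.

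Named genes are, first, the 12 largest called rises and falls with a mean of at least 5 FPKM in the 4 libraries. Next come up to 3 called members per list, with the largest change and at least 5 FPKM. Where none was called, the 2 highest were taken. A list fixed by name completes them. Others are marked as chosen after their values were seen, except the neighbours CZ1P-ASNS and DIAPH3 and the remaining cell type markers. The members and the 41 lists (819 of 820 genes matched) were chosen with earlier results of these data known. Some genes are not reported here.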

Additional observations from a re-analysis of the deposited data

How the results depend on the processing

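The 224 calls of 60 kPa against high glucose became 10 with the 4 libraries alone, 337 after centring by trimmed means (222 of them among the 224), 892 after GC correction (223 shared), 1762 in voom on recovered reads (211 shared), 710 without the 6 kPa libraries (224 shared; chosen after seeing the data) and 72 with a 2-fold minimum. Leaving out 1 library gave 32 to 85 calls. A pseudocount of 0.1, no filter and a minimum of 5 FPKM gave 207, 159 and 204. Against 400 Pa, the 2722 calls of 60 kPa became 1277 after GC correction, 6157 in voom and 4492 without the 6 kPa libraries, and the 3136 of high glucose became 688, 6813 and 5133. Of 57 called genes named by rule 0 reversed, 8 passed under all 12 alternatives and 44 lost the call in 1 or more of the 4 fits with a library left out. Fits with 1 library in a group assume that it varies like the other groups. No paired analysis was possible because the columns carry no replicate number. Depth limits genes with few reads, such as ATF3 on 60 kPa, and the cause of the other shifts was not tested.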

Other observations

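Over all 224 called genes, 18 passed with any 1 of the 4 libraries left out, and 17 of them were falls. GRHL3, a transcription factor of epidermal differentiation, was among the 17, at -1.57. The 1 rise was MIR3128, a short RNA gene, at 2.13. MIR3128 averaged only 1.73 FPKM over the 4 libraries and passed in 8 of the 11 alternatives that held a value for it. GRHL3 and MIR3128 were chosen after their values were seen.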
